A study of Mus musculus with 12 samples.

Results

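The interferon response genes described here are 34 genes that cells switch on after type I interferon, chosen by symbol from the 23362 genes counted. All 34 were present in the count tables. They were followed through 12 libraries of polyadenylated RNA from C57BL/6 mice, with 3 libraries in each of 4 groups. GATA2-GMP KO are Xbp1-deficient granulocyte-macrophage progenitors (GMP) that were sorted, transduced with GATA2, sorted again and kept in culture for 48 hours. GATA2-GMP WT are wild type GMP handled in the same way. GMP KO and GMP WT are Xbp1-deficient and wild type progenitors that went from the sorter into Trizol with no transduction and no culture. GATA2 drives these progenitors towards eosinophils, and the series asks what the transcription factor XBP1 controls at these 2 stages. The Xbp1 allele, the vector that carried GATA2 and the animals behind each library are not given in the sources used here. p-values therefore measure the spread between these libraries, which may be technical.

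Type I interferons bind the receptor IFNAR1 and IFNAR2, whose kinases JAK1 and TYK2 phosphorylate STAT proteins. STAT2 then acts with IRF9 in the complex ISGF3, which binds interferon-stimulated response elements and turns on antiviral genes: RNA sensors, enzymes that degrade or trap viral RNA, the ubiquitin-like protein ISG15 with its ligases and protease, and genes of peptide presentation. Stem and progenitor cells are known to keep a basal level of some of these genes without infection. XBP1 is a factor of the unfolded protein response, the reaction of secretory cells to misfolded protein in the endoplasmic reticulum, and eosinophil progenitors that make granule proteins depend on it.

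Libraries held 8219366 to 33640911 counts. Levels are CPM, counts scaled to a common library size and corrected with TMM, edgeR's correction for libraries of different composition, over all 12 libraries. Xbp1 itself was at 99.8, 121 and 128 CPM in GATA2-GMP KO, against 381, 269 and 197 CPM in GATA2-GMP WT, and at 89.8, 55.9 and 56.8 CPM in GMP KO, against 131, 133 and 153 CPM in GMP WT. Every KO library was below every WT library of its stage, although neither difference passed edgeR's test (adjusted p = 0.0959 in GATA2-GMP and 0.0919 in GMP). Markers fitted the stages: 11 eosinophil genes summed to 56208 to 207229 CPM in GATA2-GMP and to 119 to 671 CPM in GMP. Replicate 3 of each GATA2-GMP genotype stood apart from the other libraries of its group. The 19 genes of MHC class I presentation summed to 3821 CPM in GATA2-GMP KO 3, against 2352 and 1867 CPM in KO 1 and KO 2, and to 2114 CPM in GATA2-GMP WT 3, against 4152 and 3619 CPM in WT 1 and WT 2. For these genes KO 3 lay nearer to WT 1 and WT 2, and WT 3 nearer to KO 1 and KO 2, while Xbp1 followed the labels in all 6 libraries. Every genotype value of GATA2-GMP carries this doubt, and several of those that move without either library are given both ways.

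The promoter could be searched for the interferon-stimulated response element in 25 of the 34 members, those with an entry in the RefSeq promoter table of build GRCm38.p6. Oas2, Mx1, Mx2, Usp18, Dhx58, Zbp1, Rtp4, Parp9 and Parp14 had no entry. The motif searched was GAAA followed by any 2 bases and a second GAAA, on both strands and with overlapping matches allowed, in the 250 bases before the annotated start. It was found in 10 of the 25 members (40%) and in 936 of all 27025 genes of the table (3.46%). The 8 such members with the highest mean level are printed because they carry the element by which ISGF3 is known to act. Each line gives 60 bases of the gene's own strand, 5′ to 3′, and capitals mark the motif or its reverse complement.
Gbp3, chr3:142559977-142560036, plus strand: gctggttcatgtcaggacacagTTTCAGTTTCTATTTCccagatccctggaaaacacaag
Stat2, chr10:128270251-128270310, plus strand: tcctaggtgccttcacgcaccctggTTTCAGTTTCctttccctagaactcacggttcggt
Bst2, chr8:71537565-71537624, minus strand: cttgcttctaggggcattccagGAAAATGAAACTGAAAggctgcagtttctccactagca
Oas1a, chr5:120907526-120907585, minus strand: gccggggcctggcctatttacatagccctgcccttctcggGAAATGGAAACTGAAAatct
Gbp2, chr3:142620579-142620638, plus strand: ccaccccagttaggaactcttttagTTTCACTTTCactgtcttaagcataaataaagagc
Oas3, chr5:120777700-120777759, minus strand: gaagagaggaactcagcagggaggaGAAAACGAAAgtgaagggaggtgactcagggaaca
Rsad2, chr12:26456538-26456597, minus strand: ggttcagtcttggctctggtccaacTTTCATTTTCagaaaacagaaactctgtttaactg
Isg15, chr4:156200856-156200915, minus strand: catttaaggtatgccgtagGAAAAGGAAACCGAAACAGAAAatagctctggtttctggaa
The Isg15 window holds 3 overlapping matches, those of Gbp3, Bst2 and Oas1a hold 2, and the other windows hold 1. The match of Oas1a ends 5 bases before the start, and that of Stat2 begins 222 bases before it. Ifit1 and Ifit3 also held the motif. A match is a description of these letters and not evidence that a factor was bound.

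The 34 genes together took 594, 551 and 680 CPM in GATA2-GMP KO, against 456, 465 and 635 CPM in GATA2-GMP WT. In GMP they took 790, 801 and 710 CPM in KO, against 729, 732 and 726 CPM in WT. The WT libraries of GMP lay close together, whereas GATA2-GMP WT 3 lay inside the range of GATA2-GMP KO. Divided by the exonic length of the gene in the mm9 annotation, the highest member in GATA2-GMP was Ifi35, an interferon-induced leucine zipper protein, with 76.4 CPM per kb in KO and 78.3 CPM per kb in WT. In GMP it was Bst2, the membrane protein tetherin that holds budding virus at the cell surface, with 60 CPM per kb in KO and 62.8 CPM per kb in WT. Mx2, Ifi44 and Ifit3 were the lowest in GATA2-GMP KO, and Mx2 reached 0.326 CPM per kb in GMP KO and 0.316 CPM per kb in GMP WT.

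Loss of Xbp1 was first examined in GATA2-GMP, the stage at which the members varied most. No member passed the test (edgeR's quasi-likelihood test, Benjamini-Hochberg adjusted p under 0.05 over all 11699 genes tested), where 0.103% of all genes were higher in KO and 0.274% lower. Ifit3, Mx1, Mx2 and Ifi44 were too low to be tested, which left 30 members. Their log2 fold changes, KO over WT, were nevertheless mostly above 0, in 23 of 30 members against 49.6% of all genes, with a median of 0.63 against -0.0049 for all genes. At an unadjusted p under 0.05, 6 members were higher in KO (Ifit1, Ifit2, Oasl2, Usp18, Xaf1 and Dhx58) and 1 was lower (Cmpk2), where 6.59% and 8.31% of all genes were. In 7 of the 30 members (those 6 and Gbp2) every KO library was above every WT library, against 10.2% of all genes. No member had every KO library below every WT library, against 12.3% of all genes. DESeq2 called Mx1, Oasl2, Usp18 and Xaf1 higher, against 1.24% of all genes. The same edgeR contrast fitted over all 12 libraries called Ifit1, Ifit2, Oasl2, Usp18 and Xaf1 higher, against 4.66% of all genes, and the fit with no filter on low counts called Usp18 and Xaf1, against 0.645%. With library totals alone as the scale, the median of all genes moved to 0.18 and that of the members to 0.79. Every KO library of this stage had more genes with a count (16455, 15469 and 16009) than every WT library (14558, 14783 and 15087). With no filter on low counts the median of all genes was 0.068 and that of the members 0.62. Several of the members that were higher rest on few counts in WT, and the part of this difference in their shift was not tested.

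In the same GATA2-GMP libraries, the eosinophil markers summed to 56208, 68273 and 60396 CPM in KO, against 207229, 135992 and 166811 CPM in WT, with all 11 tested markers below 0 and 2 of them lower by the test. Fewer cells of a type and less RNA per cell cannot be told apart in such bulk samples. The 10 markers of plasmacytoid dendritic cells, the main producers of type I interferon, summed to 161, 165 and 165 CPM in KO, against 75.9, 97.6 and 133 CPM in WT. Cox6a2 alone accounted for 61.4, 73.4 and 96.4 CPM of these sums in KO, against 0.232, 22.4 and 17.4 CPM in WT. Of these markers, Ly6d had no count in any library, and Siglech reached at most 0.233 CPM. Bst2 is both among these markers and among the interferon response genes. The 8 macrophage markers summed to 2948, 2249 and 2325 CPM in KO, against 1822, 1523 and 2598 CPM in WT, most of it Vcam1 and Emr1, with C1qa, C1qb and C1qc under 1 CPM throughout. The part of these differences in the levels of the interferon response genes was not tested.

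**Figure D1:**
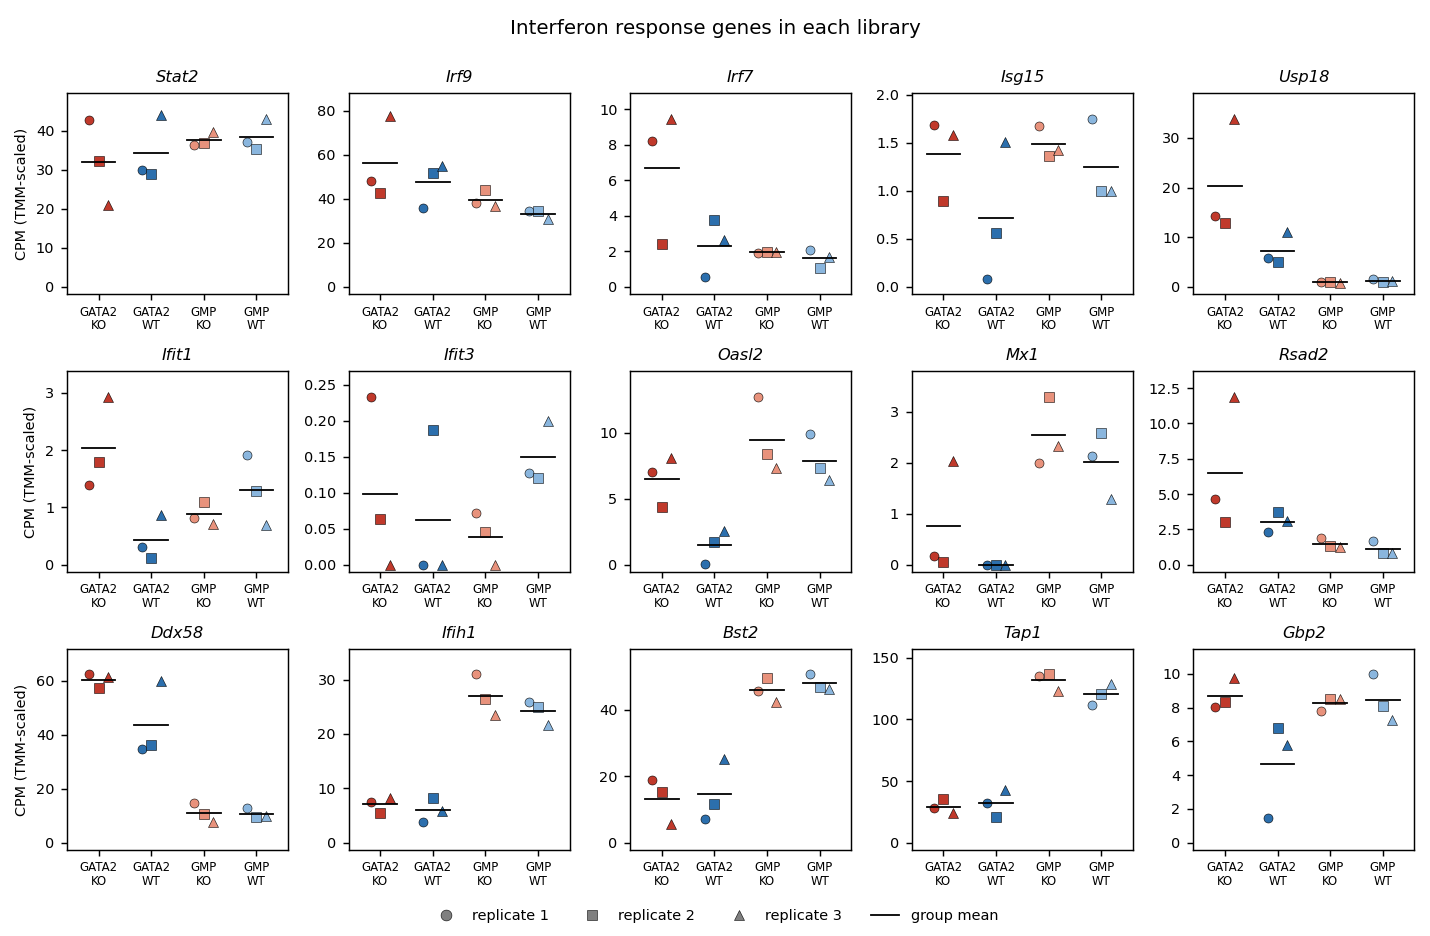
Level in CPM (vertical axis, a scale of its own in each panel) of 15 interferon response genes in the 12 libraries, with circles, squares and triangles for replicates 1, 2 and 3 and a line at the group mean. Usp18, Oasl2, Ifit1 and Gbp2 have all 3 GATA2-GMP KO libraries above all 3 GATA2-GMP WT libraries, while Stat2, Bst2 and Tap1 have their highest GATA2-GMP library in WT 3.

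Among the transcription factors, Stat2 and Irf9, both part of ISGF3, did not differ between the genotypes of GATA2-GMP beyond their spread. Stat2 was at 42.7, 32.3 and 20.9 CPM in GATA2-GMP KO, against 29.9, 28.8 and 43.9 CPM in GATA2-GMP WT, and at 36.3, 36.8 and 39.7 CPM in GMP KO, against 37.0, 35.3 and 42.9 CPM in GMP WT. Its GATA2-GMP genotypes overlap, and KO 3 holds the lowest value and WT 3 the highest (log2 fold change -0.095, SE 0.30, edgeR adjusted p = 0.917). Irf9 was at 48.1, 42.6 and 77.5 CPM in GATA2-GMP KO, against 35.9, 51.6 and 54.8 CPM in GATA2-GMP WT, with KO 3 well above the other 5 libraries (log2 fold change 0.24, SE 0.29, adjusted p = 0.746). In GMP, Irf9 was at 38.1, 43.9 and 36.6 CPM in KO, against 34.5, 34.6 and 30.7 CPM in WT. All 3 KO libraries were above all 3 WT libraries there, with log2 fold change 0.24 (SE 0.075, adjusted p = 0.133). Irf7, which amplifies interferon transcription, was at 8.22, 2.43 and 9.46 CPM in GATA2-GMP KO, against 0.541, 3.76 and 2.62 CPM in GATA2-GMP WT. KO 1 and KO 3 were above every WT library, but KO 2 was below WT 2 and WT 3 (log2 fold change 1.52, SE 0.68, adjusted p = 0.336). In GMP, Irf7 stayed at 1.93, 1.95 and 1.97 CPM in KO, against 2.05, 1.04 and 1.70 CPM in WT.

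The genes of the ISG15 system were led by Usp18, the protease that removes ISG15 from proteins and damps signalling at IFNAR2. Usp18 was at 14.3, 12.9 and 33.8 CPM in GATA2-GMP KO, against 5.88, 5.08 and 11 CPM in GATA2-GMP WT. The lowest KO library exceeded the highest WT library, and KO 3 was the highest of the 6 (log2 fold change 1.47, SE 0.45, adjusted p = 0.188). Without KO 3 the log2 fold change was 0.89 (adjusted p = 0.404), and without WT 3 it was 1.89 and passed (adjusted p = 0.0436). Over the 14 settings tried, the adjusted p of Usp18 ran from 0.0139 to 0.527. In GMP, Usp18 was at 1.04, 1.06 and 0.716 CPM in KO, against 1.54, 1.04 and 1.25 CPM in WT, where the genotypes overlap. Isg15 itself, whose promoter window is printed above, was at 1.69, 0.896 and 1.58 CPM in GATA2-GMP KO, against 0.0773, 0.565 and 1.51 CPM in GATA2-GMP WT. WT 3 reached the KO range and WT 1 held a single count (log2 fold change 0.91, SE 0.81, adjusted p = 0.654). Isg15 in GMP was at 1.68, 1.36 and 1.43 CPM in KO, against 1.75, 0.997 and 0.999 CPM in WT. Herc6, the ISG15 ligase of the mouse, had a log2 fold change of 0.23 (SE 0.31), and Trim25, a ligase that activates RIG-I, one of -0.21 (SE 0.23), both with overlapping genotypes in GATA2-GMP.

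Sensors of foreign nucleic acid split by gene. Ddx58, which encodes the RNA sensor RIG-I, was at 62.4, 57.2 and 61.5 CPM in GATA2-GMP KO, against 34.6, 36.1 and 59.7 CPM in GATA2-GMP WT. The KO libraries lay close together, and WT 3 was in their range while WT 1 and WT 2 were well below it (log2 fold change 0.48, SE 0.26, adjusted p = 0.428). Ifih1, which encodes the long-RNA sensor MDA5, was at 7.40, 5.50 and 8.26 CPM in GATA2-GMP KO, against 3.79, 8.22 and 5.88 CPM in GATA2-GMP WT. Its genotypes overlap, with the highest value in KO 3 and the lowest in WT 1. Dhx58, the regulator LGP2 of both sensors, was at 11.9, 10.9 and 15.0 CPM in GATA2-GMP KO, against 8.58, 5.58 and 9.21 CPM in GATA2-GMP WT. Its genotypes did not overlap, and its log2 fold change was 0.70 (SE 0.30, adjusted p = 0.314). Zbp1, a sensor of Z-form nucleic acid that can trigger necroptosis, was at 11.5, 11.9 and 32.6 CPM in GATA2-GMP KO, against 21.3, 20.3 and 15.0 CPM in GATA2-GMP WT. KO 1 and KO 2 were below every WT library and KO 3 was above all of them, so that the log2 fold change over all libraries was -0.015 (SE 0.41). In GMP the log2 fold changes of Ddx58, Ifih1, Dhx58 and Zbp1 were 0.052, 0.15, 0.062 and 0.17, and none of the 4 separated the genotypes.

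The antiviral effectors held the largest differences of GATA2-GMP. Ifit1, a protein that binds viral RNA ends and blocks their translation, was at 1.40, 1.79 and 2.93 CPM in GATA2-GMP KO, against 0.309, 0.125 and 0.874 CPM in GATA2-GMP WT, from 24, 28 and 39 counts against 4, 2 and 15 counts. All KO libraries were above all WT libraries (log2 fold change 2.18, SE 0.72, adjusted p = 0.221), whereas in GMP the log2 fold change of Ifit1 was -0.53 (SE 0.34) with overlap. Its neighbour Ifit2 was at 4.26, 5.31 and 5.40 CPM in GATA2-GMP KO, against 0.232, 2.38 and 2.39 CPM in GATA2-GMP WT. The KO libraries of Ifit2 were again all higher (log2 fold change 1.56, SE 0.64, adjusted p = 0.304). Ifit3 had at most 4 counts in any library. The gene I830012O16Rik beside it on chromosome 19 is a near-identical copy, so reads that fit both may have been lost, and the level of Ifit3 is uncertain.

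Oasl2, a relative of the oligoadenylate synthetases that activate RNase L, was at 7.05, 4.41 and 8.11 CPM in GATA2-GMP KO, against 0.0773, 1.76 and 2.56 CPM in GATA2-GMP WT. Every KO library was above every WT library, and WT 1 held a single count (log2 fold change 2.12, SE 0.74, adjusted p = 0.234). In GMP, Oasl2 was at 12.7, 8.43 and 7.34 CPM in KO, against 9.91, 7.30 and 6.45 CPM in WT, where the genotypes overlap. Oas1a, Oas2, Oas3 and Oasl1 had log2 fold changes of 0.47, 0.93, 0.79 and 1.22 in GATA2-GMP, all with overlapping genotypes. The Oas1 genes have close copies between which reads may be split. In GATA2-GMP, Oas1a was at 11.6, 9.92 and 27.4 CPM in KO, against 8.97, 10.5 and 15.7 CPM in WT, with KO 3 the highest. Oas1a was at 9.61, 7.84 and 7.61 CPM in GMP KO, against 6.32, 6.46 and 5.30 CPM in GMP WT, with no overlap between genotypes. That log2 fold change was 0.46 (SE 0.13, adjusted p = 0.103). Xaf1, an interferon-induced binding partner of the apoptosis inhibitor XIAP, was at 3.15, 2.24 and 8.48 CPM in GATA2-GMP KO, against 0.541, 0.878 and 1.46 CPM in GATA2-GMP WT. It had the lowest adjusted p of the members at this stage, 0.155 for a log2 fold change of 2.24 (SE 0.63), which was 1.47 without KO 3 (adjusted p = 0.395). The adjusted p of Xaf1 ran from 0.0156 to 0.454 over the 14 settings.

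Mx1, a gene of the dynamin-like GTPase family, had no count in any GATA2-GMP WT library and 3, 1 and 27 counts in GATA2-GMP KO. Against a floor of 3 counts over the WT group, Mx1 was at least 10.3-fold higher in KO, and 27 of the 31 counts came from KO 3. In GMP it was at 2, 3.29 and 2.33 CPM in KO, against 2.14, 2.59 and 1.30 CPM in WT, with overlap. Rsad2, which encodes viperin, was at 4.66, 3.01 and 11.9 CPM in GATA2-GMP KO, against 2.32, 3.76 and 3.09 CPM in GATA2-GMP WT. KO 2 lay among the WT libraries (log2 fold change 1.09, SE 0.52, adjusted p = 0.373). Cmpk2, a nucleotide kinase encoded beside Rsad2 on chromosome 12, was at 13.2, 14.3 and 19.6 CPM in GATA2-GMP KO, against 27.0, 18.4 and 27.8 CPM in GATA2-GMP WT. The neighbours thus had opposite signs, and Cmpk2 had the lowest log2 fold change of the 30 members, -0.63 (SE 0.27, adjusted p = 0.320). Rtp4, a chaperone for receptors, had the highest, 2.81 (SE 1.36, adjusted p = 0.381), from 1.92, 0.448 and 11.4 CPM in KO, against 0, 0.0627 and 1.81 CPM in WT. The log2 fold change of Rtp4 was 0.88 without KO 3 (adjusted p = 0.800) and 6.74 without WT 3 (adjusted p = 0.0512).

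Bst2 was at 18.9, 15.3 and 5.63 CPM in GATA2-GMP KO, against 7.27, 11.6 and 25.3 CPM in GATA2-GMP WT. KO 3 was its lowest library and WT 3 its highest (log2 fold change -0.14, SE 0.52, adjusted p = 0.927). Tap1, a subunit of the transporter that loads peptides onto MHC class I, was at 28.0, 35.2 and 23.9 CPM in GATA2-GMP KO, against 32, 21.1 and 43.0 CPM in GATA2-GMP WT, with overlap. Gbp2, a guanylate-binding GTPase of antimicrobial defence, was at 8.05, 8.32 and 9.76 CPM in GATA2-GMP KO, against 1.47, 6.78 and 5.77 CPM in GATA2-GMP WT. The genotypes of Gbp2 did not overlap (log2 fold change 0.89, SE 0.48, adjusted p = 0.432), while in GMP its KO libraries were at 7.79, 8.50 and 8.51 CPM, against 9.99, 8.09 and 7.29 CPM in WT. The divergently oriented neighbours Parp9 and Dtx3l, partners in one ubiquitin ligase complex, and Parp14 beside them on chromosome 16 had log2 fold changes of 0.62, 0.44 and 0.65 in GATA2-GMP, all with overlap. Parp9 and Dtx3l overlap on opposite strands and the strand setting of the counting is not given, so reads of the shared stretch cannot be assigned. Gbp3 and Ifi35 had log2 fold changes of 0.39 (SE 0.70) and -0.032 (SE 0.19).

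**Figure D2:**
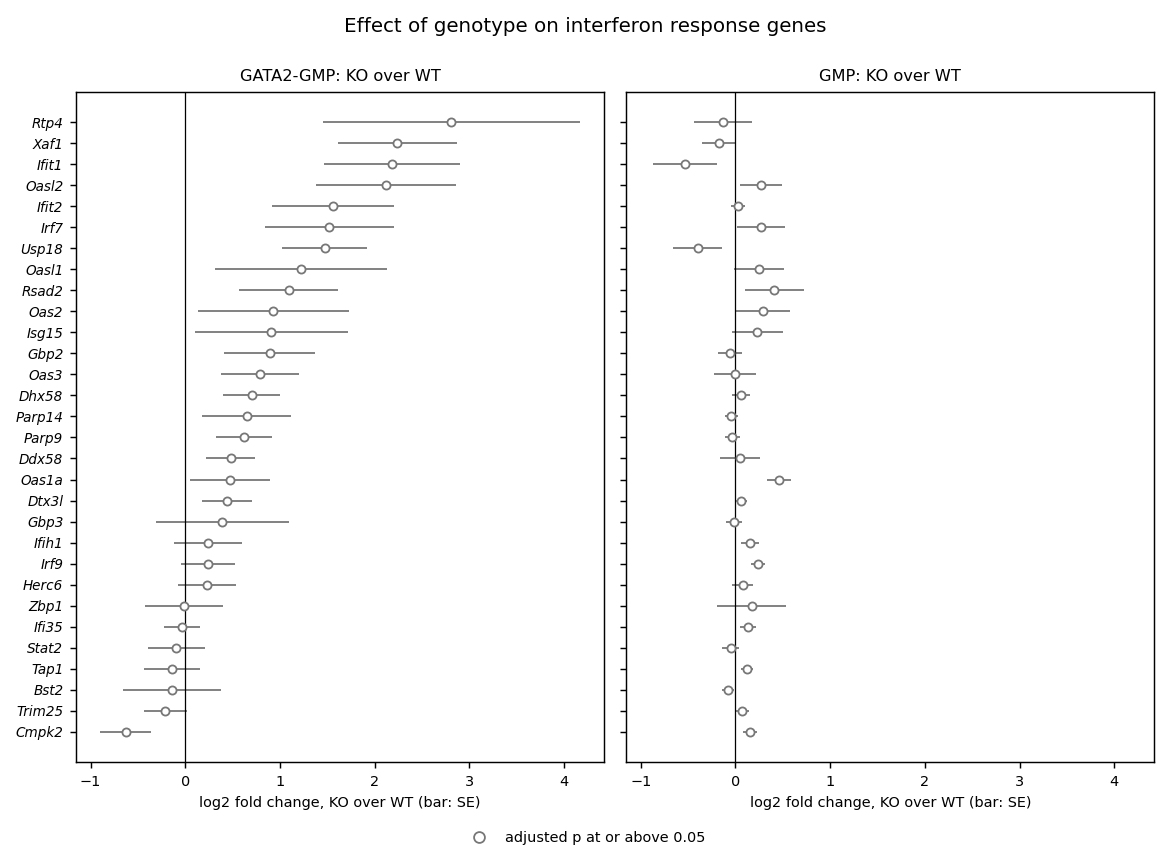
Log2 fold change of KO over WT with its standard error for 30 interferon response genes, in GATA2-GMP on the left and in GMP on the right, ordered by the GATA2-GMP value. Open circles mark an adjusted p at or above 0.05, which holds for every gene in both panels, and the GATA2-GMP values spread from -0.63 to 2.81 while those of GMP stay between -0.53 and 0.46.

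The shift in GATA2-GMP was then read library by library. KO 3 was the highest of the 6 libraries in 17 of the 30 members, against 22% of all genes, and WT 1 was the lowest in 17 of 30, against 22.4% of all genes. KO 3 was also the lowest library for 3 members, Stat2, Bst2 and Trim25, against 22.8% of all genes. WT 3 was the highest library for 7 members (Stat2, Bst2, Trim25, Parp14, Cmpk2, Ifi35 and Tap1), against 21.8% of all genes, and the lowest for none. The median deviation of the members from the middle of the 6 libraries was 0.26, -0.0068 and 0.42 on the log2 scale in KO, against -0.79, -0.43 and 0.047 in WT. KO 3 and KO 1 were thus on the high side, WT 1 and WT 2 on the low side, and KO 2 and WT 3 near the middle. The median kept its sign without either KO 3 or WT 1. Without KO 3 the members' median log2 fold change was 0.50 with 23 of 30 above 0, and without WT 1 it was 0.39 with 23 of 30 above 0. Without WT 3 it was 0.85, with 27 of 30 above 0 and Usp18 as the only member called, against 2.38% of all genes called higher. With KO 3 left out, 8 members (the earlier 7 and Herc6) had both other KO libraries above every WT library, against 16.3% of all genes. The count was 7 without KO 1, against 12.3%, and 15 without KO 2, against 14%.

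The number of genes called in GATA2-GMP depended on which libraries entered the fit. The fit on all 6 libraries called 44 genes, leaving out KO 1 or KO 3 gave 0, and leaving out WT 1, WT 2 or KO 2 gave 8, 28 and 20. Without WT 3 it gave 525, and without both KO 3 and WT 3 it gave 2934. In that last fit 5 of 29 members tested were higher in KO (Ddx58, Dtx3l, Ifit1, Parp14 and Usp18), against 12.3% of all genes, and Zbp1 was lower, against 12.6%. Usp18 had a log2 fold change of 1.32 there (SE 0.29, adjusted p = 0.0139) and Zbp1 one of -0.82 (SE 0.23, adjusted p = 0.0345). The sign turned in this fit for Stat2 (0.36), Bst2 (0.87), Trim25 (0.061) and Tap1 (0.27). Without KO 3 alone it turned for Stat2 (0.13), Irf9 (-0.065), Oas1a (-0.13) and Bst2 (0.21), and without WT 3 alone for Stat2 (0.12), Bst2 (0.50), Tap1 (0.13) and Ifi35 (0.0065). The log2 fold change of Rsad2 was 0.32 without KO 3, and that of Isg15 was 2.04 without WT 3. For Irf7 it was 1.19 without KO 3 and 1.61 without WT 3. In the same 2 fits Oas2 was at 0.33 and 2.51, Ifit1 at 1.83 and 3.21, Parp14 at 0.56 and 1.44, and Zbp1 at -0.69 and -0.16. None of these values passed the test. Both libraries were left out together after their values had been seen, so the calls are a description of the other 4.

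**Figure D3:**
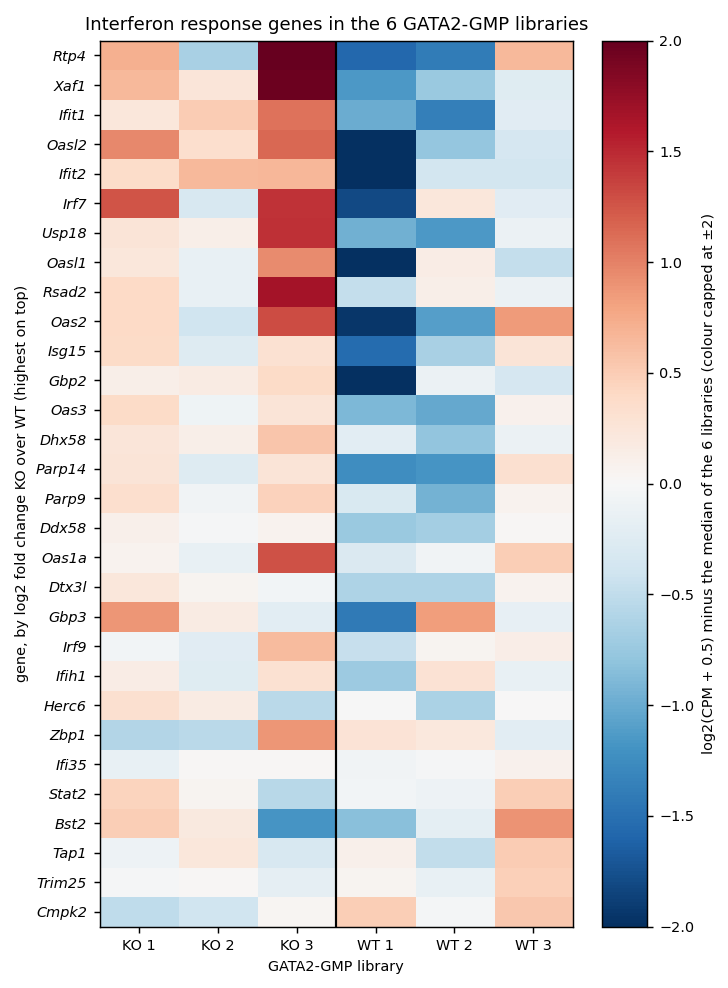
Deviation of each of 30 interferon response genes (rows, highest log2 fold change on top) from its median over the 6 GATA2-GMP libraries (columns, KO left and WT right), in log2(CPM + 0.5), red for above and blue for below with the deepest colours capped. KO 3 is the reddest column of the upper rows and WT 1 the bluest, and in the bottom rows Bst2 and Stat2 are low in KO 3 and high in WT 3.

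In freshly sorted GMP the members differed little between genotypes. None of 33 tested members passed the test, where 0.658% of all 12002 genes were higher in KO and 2.52% lower, and Ifit3 was not tested. The log2 fold changes ran from -0.53 for Ifit1 to 0.55 for Ifi44, with 22 of 33 above 0 against 51.8% of all genes, and a median of 0.078 against 0.0058 for all genes. At an unadjusted p under 0.05, Irf9 and Oas1a were higher and no member was lower, where 6.78% and 7.69% of all genes were. KO libraries were all above WT libraries for Irf9, Oas1a and Ifi44, 3 of 33 members against 11.3% of all genes, and all below for none, against 8.09% of all genes. DESeq2 called no member. A pairing of the GMP libraries by replicate number was inferred from these same counts (r = 0.264, 0.193 and 0.127), and the main fit is unpaired. With the replicate number as a block, Irf9 (log2 fold change 0.23, SE 0.063, adjusted p = 0.0281) and Oas1a (0.44, SE 0.12, adjusted p = 0.0281) were higher in KO, where 3.3% of all genes were. Over the 13 settings the adjusted p of both ran from 0.0281 to 1. Ifi44, a cytoplasmic protein, rested on 14, 33 and 5 counts in KO, against 10, 11 and 7 counts in WT.

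Whether the genotype effect on the members differed between the stages was tested as an interaction over all 12 libraries. No member passed, where 0.0312% of all 12803 genes had a higher effect in GATA2-GMP and 0.0547% a lower one. Of 33 members tested, 23 had a difference above 0, against 49% of all genes, with a median of 0.62 against -0.013. The unadjusted p was under 0.05 for 6 members with a higher effect in GATA2-GMP (Ifit1, Ifit2, Oasl2, Mx1, Usp18 and Xaf1) and for Cmpk2 with a lower one, where 5.96% and 8.95% of all genes were. Xaf1 had the lowest adjusted p, 0.125, for a difference of 2.39 (SE 0.67). DESeq2 called Ifit1, Mx1, Usp18 and Xaf1, against 1.07% of all genes. Without GATA2-GMP WT 3, edgeR called 6 members (Dtx3l, Ifit1, Parp14, Rtp4, Usp18 and Xaf1), against 4.33% of all genes. Without both replicate 3 libraries of GATA2-GMP it called 11 members higher, against 13.7% of all genes, and Cmpk2 lower, against 18.6%.

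Unlike the genotypes in the main fits, the stages differed by the test for many members, and in both directions within the family. Not every member differed more by stage. Xaf1 had a log2 fold change of -2.14 between the stages in WT and of 2.24 between the genotypes of GATA2-GMP. Stage, transduction, culture and library kit change together, and their parts cannot be told apart. In KO, 9 members rose and 11 fell in GATA2-GMP relative to GMP among 33 tested, where 38.6% of all genes rose and 40% fell. In WT, 7 rose and 13 fell among 32 tested, where 34.1% of all genes rose and 36.4% fell. The share of members that rose was below these backgrounds in both genotypes, and the share that fell was below in KO and above in WT. No test was made over the list. The median log2 fold change was -0.093 in KO and -0.79 in WT, against -0.055 and -0.092 for all genes. The WT median was the same, -0.79, with Mx1 and Mx2 at the bound that 3 counts allow. With library totals alone, the median of all genes moved to -0.73 in KO and -0.93 in WT. In that setting 7 members were higher and 19 lower in KO, where 26.3% of all genes were higher and 53.7% lower. In WT 4 members were higher and 19 lower, where 20.4% and 55.6% of all genes were.

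In both genotypes 6 members rose at the GATA2-GMP stage, Usp18, Zbp1, Ddx58, Ifi35, Rsad2 and Oas1a. How many of all genes were called in both genotypes, or in a single one, was not counted. The counts of members called in both or in a single genotype therefore have no background to be set against. Zbp1 had log2 fold changes of 3.82 in KO (SE 0.48, adjusted p = 7.82e-05) and 4.02 in WT (SE 0.40, adjusted p = 6.71e-05), from under 2 CPM in every GMP library. Usp18 had 4.38 in KO (SE 0.44) and 2.53 in WT (SE 0.39), Ddx58 2.45 and 2.02, and Ifi35 2.41 and 2.59. Ifi35 stood at 122, 137 and 137 CPM in GATA2-GMP KO and 129, 133 and 143 CPM in GATA2-GMP WT, against 26.4, 25.3 and 23 CPM in GMP KO and 23.1, 24.6 and 20.1 CPM in GMP WT, so that no GATA2-GMP library came near the GMP range. Rsad2 had 2.11 in KO and 1.46 in WT, and Oas1a 0.96 and 0.97. With library totals alone Oas1a was at 0.25 in KO (adjusted p = 0.499) and 0.15 in WT (adjusted p = 0.656), and Rsad2 in WT was at 0.63 (adjusted p = 0.194). The WT call of Oas1a was lost without GMP WT 3 (adjusted p = 0.0580), and that of Rsad2 without GMP WT 2 or GMP WT 3 (up to 0.0676). The KO call of Oas1a was lost without GATA2-GMP KO 3 or any 1 of the 3 GMP KO libraries (up to 0.104).

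In both genotypes 9 members fell, a count with no background: Mx2, Gbp3, Ifit2, Parp14, Ifih1, Tap1, Bst2, Trim25 and Dtx3l. Gbp3 fell furthest among those with reads in every group, to 4.26, 2.37 and 1.73 CPM in GATA2-GMP KO and 0.464, 4.08 and 1.81 CPM in GATA2-GMP WT, against 69.0, 87.6 and 73.5 CPM in GMP KO and 71.8, 82.4 and 75.9 CPM in GMP WT. Its log2 fold changes were -4.75 in KO (SE 0.30, adjusted p = 1.43e-06) and -5.14 in WT (SE 0.57, adjusted p = 0.000116). Ifit2 had -2.48 in KO and -3.98 in WT, and Tap1 had -2.17 and -1.90. Tap1 was at 135, 137 and 123 CPM in GMP KO and 112, 121 and 129 CPM in GMP WT, above every GATA2-GMP library. Ifih1 had log2 fold changes of -1.93 in KO and -2.01 in WT, opposite to the other RNA sensor Ddx58. Ifih1 was at 31.0, 26.4 and 23.4 CPM in GMP KO and 25.9, 25.0 and 21.7 CPM in GMP WT, whereas Ddx58 was at 14.7, 10.6 and 7.70 CPM in GMP KO and 12.9, 9.49 and 9.84 CPM in GMP WT. Bst2 had -1.77 in KO and -1.69 in WT, from 45.6, 49.7 and 42.2 CPM in GMP KO and 50.7, 46.9 and 46.4 CPM in GMP WT. Parp14 had -1.93 in KO and -2.61 in WT, Trim25 -1.54 and -1.24, and Dtx3l -0.78 and -1.15.

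Mx2 was close to absent in GATA2-GMP, and so was Mx1 in WT, while Mx1 in GATA2-GMP KO 3 (2.03 CPM) lay in the range of GMP. Mx2 had 2 counts over the GATA2-GMP KO libraries and 72 over GMP KO, a ratio of 0.0498 with a 95% counting interval of 0.00592 to 0.187, and none over GATA2-GMP WT and 53 over GMP WT, at least 11.9-fold lower. Mx1 had none over GATA2-GMP WT and 141 over GMP WT, at least 31.6-fold lower, and a log2 fold change of -1.83 in KO that did not pass (SE 0.83, adjusted p = 0.0706). Ifi44 had 3 counts over GATA2-GMP KO and 52 over GMP KO, a ratio of 0.103 (95% counting interval 0.0207 to 0.320), and 3 over GATA2-GMP WT and 28 over GMP WT, a ratio of 0.159 (0.0310 to 0.516). Intervals and bounds cover counting error only.

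Another 10 members were called in a single genotype, again with no count over all genes. In KO, Irf7 (1.79), Oas3 (1.30) and Ifit1 (1.16) rose and Cmpk2 (-0.72) and Ifi44 fell. The KO call of Ifit1 was lost without GATA2-GMP KO 3, GMP KO 1 or GMP KO 3 (adjusted p up to 0.0867) and with library totals alone (log2 fold change 0.47, adjusted p = 0.253). In WT, Irf9 rose (0.52, adjusted p = 0.0454) and Mx1, Oasl2 (-2.38), Xaf1 (-2.14) and Dhx58 (-0.98) fell. The WT call of Irf9 was lost without GATA2-GMP WT 2 or any 1 of the 3 GMP WT libraries (up to 0.164), and its sign turned with library totals alone (-0.31). The WT call of Oasl2 was lost without GMP WT 1 (adjusted p = 0.0561). None of these 10 passed edgeR's interaction test on all 12 libraries. DESeq2's interaction test called Ifit1 (adjusted p = 0.0346), Mx1 (0.0281) and Xaf1 (0.0178) among them. Stat2, Isg15, Ifit3, Oasl1, Oas2, Rtp4, Parp9, Gbp2 and Herc6 were called in neither genotype.

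**Figure D4:**
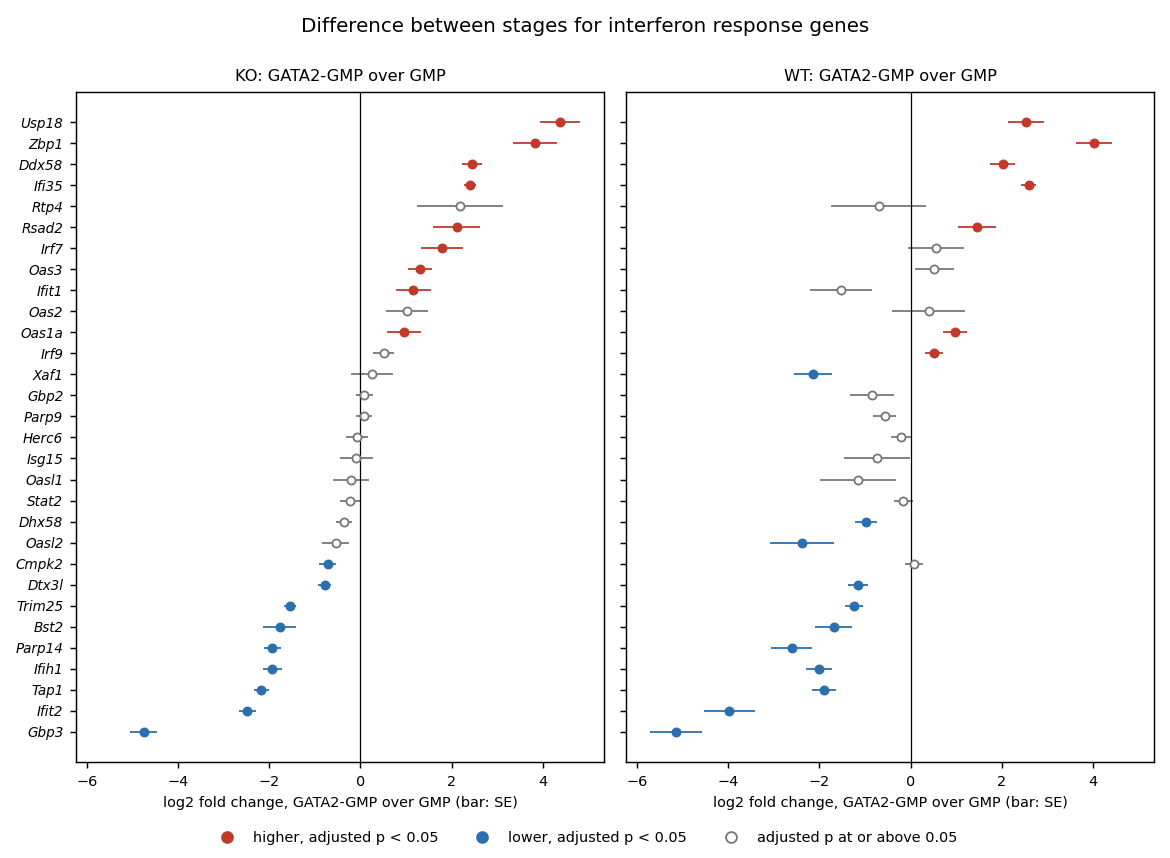
Log2 fold change of GATA2-GMP over GMP with its standard error for 30 interferon response genes, in KO on the left and WT on the right, ordered by the KO value; red marks higher and blue lower at an adjusted p under 0.05. Usp18, Zbp1, Ddx58 and Ifi35 are high in both panels and Gbp3, Ifit2 and Tap1 low in both, while Rtp4, Ifit1 and Xaf1 have their points further right in KO than in WT.

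The rest of the pathway was taken from lists of other genes. Of 23 listed names of interferon ligands, 19 were in the tables, and 18 of these had at most 3 counts over all 12 libraries. Ifnb1, the interferon first made after RNA is sensed, had 1 count in all, in GATA2-GMP KO 1. The receptor chain Ifnar1 was at 56.7, 50.8 and 45.9 CPM in GATA2-GMP KO, against 33.9, 22.4 and 51.9 CPM in GATA2-GMP WT, with overlap through WT 3. The other chain, Ifnar2, was at 22, 26.4 and 24.6 CPM in GATA2-GMP KO, against 35.8, 35.5 and 35.9 CPM in GATA2-GMP WT. All KO libraries of Ifnar2 were lower (log2 fold change -0.55, SE 0.21, adjusted p = 0.263). Jak1 and Tyk2 had log2 fold changes of -0.37 (adjusted p = 0.443) and 0.32 (adjusted p = 0.619) at that stage, and Irf1 and Irf3 had 0.44 (adjusted p = 0.470) and 0.29 (adjusted p = 0.723). Socs1, which shuts down JAK kinases, was at 4.90, 4.35 and 4.43 CPM in GATA2-GMP KO, against 14.2, 9.66 and 8.27 CPM in GATA2-GMP WT. Its genotypes did not overlap, yet its log2 fold change of -1.22 did not pass (SE 0.31, adjusted p = 0.129). In GMP the log2 fold changes of these 7 genes lay between -0.12 and 0.61 and none passed.

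By list, no gene passed for genotype among 9 receptors and kinases, 11 other STAT and IRF factors, 18 negative regulators and 8 interferon-gamma inducible GTPases tested in GATA2-GMP, nor among 8, 10, 18 and 7 tested in GMP. All 8 GTPases tested, of 15 listed, had log2 fold changes above 0 in GATA2-GMP, against 49.6% of all genes. Their median was 0.92, against -0.0049 for all genes, and that of the 7 in GMP was 0.032, against 0.0058. None of the 8 had an unadjusted p under 0.05 by edgeR's test. The 15 GTPases summed to 186, 178 and 259 CPM in GATA2-GMP KO, against 148, 151 and 185 CPM in GATA2-GMP WT, with WT 3 inside the KO range.

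Genes of the wider lists that passed for genotype numbered 8 in GMP and 1 in GATA2-GMP, at stages where 381 and 44 of all genes passed. Tapbp, which encodes tapasin, the chaperone that bridges MHC class I and the TAP transporter, was lower in KO at both stages. It was at 37.8, 36.9 and 50.2 CPM in GATA2-GMP KO, against 149, 105 and 111 CPM in GATA2-GMP WT, and at 55.0, 59.6 and 52.4 CPM in GMP KO, against 93.4, 102 and 130 CPM in GMP WT. Its log2 fold change was -0.97 in GMP (SE 0.12, adjusted p = 0.00234), called also without any 1 library (adjusted p up to 0.0449) but not in the fit over all 12 libraries (0.0866). In GATA2-GMP it was -1.54 (SE 0.24, adjusted p = 0.0425). Among the fits without 1 library this call was kept only without WT 3 (0.0124). It was lost without any 1 of the other 5 libraries, with adjusted p up to 0.281, and with the replicate block (0.291). Tapbp passed there under DESeq2 (adjusted p = 4.35e-06) and in the edgeR fit over all 12 libraries (0.000717). The MHC class I light chain B2m was at 627, 657 and 573 CPM in GMP KO, against 777, 838 and 882 CPM in GMP WT (log2 fold change -0.44, SE 0.061, adjusted p = 0.000994). In GATA2-GMP, B2m was at 992, 663 and 2217 CPM in KO, against 2488, 1970 and 919 CPM in WT, and the replicate 3 libraries lay in each other's range. Of the 17 MHC class I genes tested in GMP these 2 were called lower and none higher, against 2.52% and 0.658% of all genes, and of the 16 in GATA2-GMP Tapbp alone was called.

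Among 28 sensors and adaptors tested in GMP, 2 rose and 1 fell in KO, against 0.658% and 2.52% of all genes. Unc93b1, which escorts nucleic acid sensing Toll-like receptors to endosomes, was at 276, 333 and 334 CPM in KO, against 230, 256 and 211 CPM in WT (log2 fold change 0.42, SE 0.092, adjusted p = 0.0413). Tlr9, the DNA receptor it escorts, was higher by a log2 value of 0.75 (SE 0.18, adjusted p = 0.0465). The Unc93b1 call was lost without GMP KO 2, KO 3, WT 1 or WT 3 (adjusted p up to 0.183), and that of Tlr9 without any library but KO 1 (up to 0.159). Tmem173, which encodes STING, was at 71.4, 78.4 and 69.1 CPM in KO, against 86.9, 92.1 and 92.5 CPM in WT (log2 fold change -0.32, SE 0.061, adjusted p = 0.0102), a call lost without KO 3 (0.0617). Among 68 other interferon-stimulated genes tested in GMP, 1 rose and 2 fell, close to those shares. Slfn2, a regulator of immune cell quiescence, was at 14.8, 15.3 and 12.2 CPM in KO, against 8.11, 9.13 and 6.00 CPM in WT, and rose with log2 fold change 0.85 (SE 0.14, adjusted p = 0.00331). Lgals3bp, a secreted glycoprotein, fell by 0.73 (SE 0.11, adjusted p = 0.00518), and Parp11 fell by 0.33 (SE 0.077, adjusted p = 0.0337), a call lost without any library but KO 2 (up to 0.143). In the fit over all 12 libraries none of the 8 genes called in GMP passed.

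**Figure D5:**
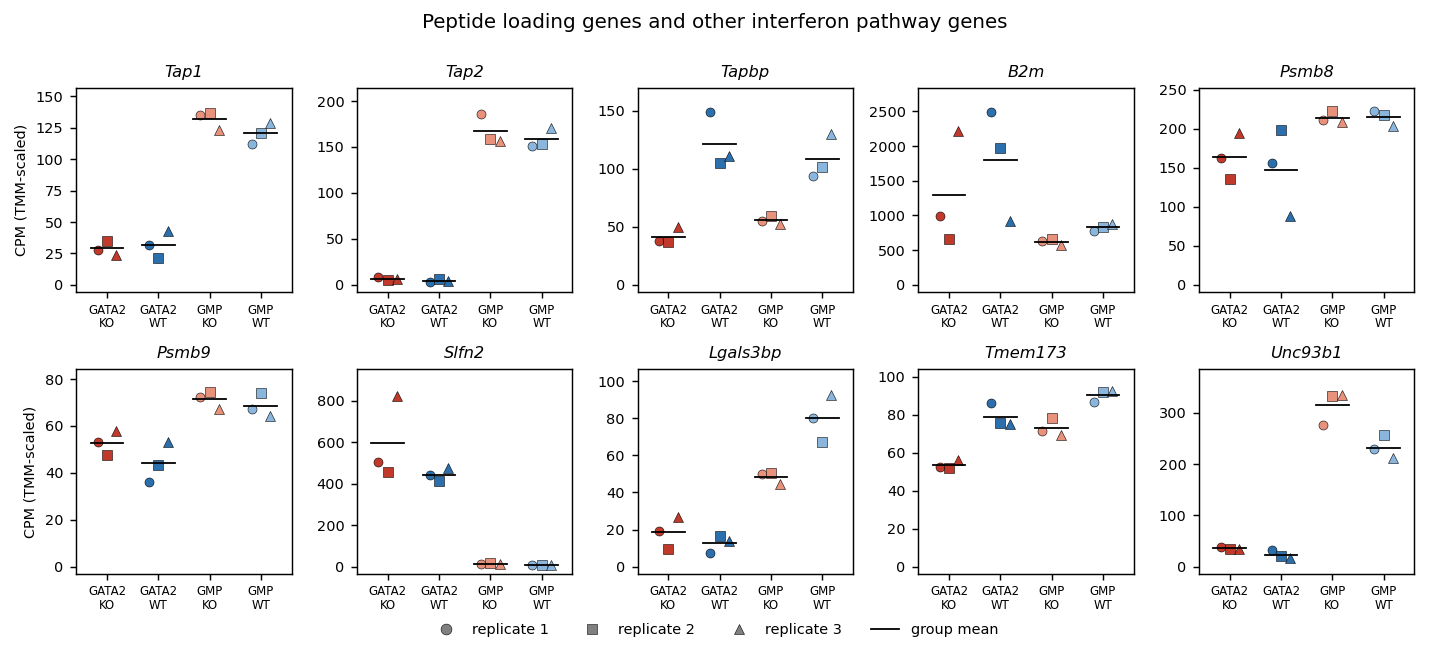
Level in CPM (vertical axis, a scale of its own in each panel) of 6 genes of peptide processing and loading, Tap1 among them, and of 4 other interferon pathway genes in the 12 libraries, with circles, squares and triangles for replicates 1, 2 and 3 and a line at the group mean. Tapbp is lower in KO than in WT in all libraries of both stages, and B2m and Psmb8 show GATA2-GMP WT 3 below the other GATA2-GMP WT libraries.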

How the data were processed

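Polyadenylated RNA of 12 libraries was sequenced, GMP with TruSeq and GATA2-GMP with SMARTer amplification before TruSeq, per the labels' protocols. The authors deposited whole-number counts per gene and library. STAR 2.3.0, SAMtools 0.1.14, HTSeq, DESeq and build mm9 are named per the submitters' processing notes. Roles, strand setting and annotation are not given in the sources used here. From these counts, 5 counter rows (55.8% to 66.5% of all counts) were set aside, and 4 names that a spreadsheet had turned into ambiguous dates were dropped, leaving 23362 genes. Library totals ran from 8219366 to 33640911, so that 1 CPM stood for 8.22 to 33.6 counts.

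Each comparison was fitted on its own 6 libraries (the interaction on 12) in edgeR 4.0.16 under R 4.3.3: filterByExpr, TMM, a robust quasi-likelihood fit and Benjamini-Hochberg adjustment over all genes tested, called under 0.05. The code was tested on simulated data. DESeq2 1.42.0, its size factors, no filter, a replicate block, 1 fit over 12 libraries and leaving out each library were tried as alternatives. Library totals alone, and leaving out both replicate 3 libraries of GATA2-GMP, were added after seeing the data. Same-numbered GMP libraries deviated together (r = 0.264, 0.193 and 0.127). Those of GATA2-GMP (-0.129, -0.233 and -0.41) and of the stages (-0.0374 to 0.037) did not. The pairing of GMP libraries was thus read from these same counts, and the main fits used none. Exonic lengths and gene places are from GENCODE vM1 on mm9.

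The members and lists were chosen with earlier results of these data known. Full values were to be given for members called by genotype, for 15 set members (Stat2, Irf9, Irf7, Isg15, Usp18, Ifit1, Ifit3, Oasl2, Mx1, Rsad2, Ddx58, Ifih1, Bst2, Tap1 and Gbp2), and for called genes of the other lists with the largest changes. Among the set members, Ifit1 and Rsad2 are given without their single GMP libraries, and Ifit3 without any. Tlr9, Lgals3bp and Parp11 of the other lists are given by fold change alone. Single-library values of Xaf1, Ifit2, Oas1a, Dhx58, Rtp4, Cmpk2 and Ifi44 were added after they had been seen, for most of them at a single stage. One result of the wider lists is not reported here.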

Additional observations from a re-analysis of the deposited data

How the results depend on the processing

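Calls by genotype depended on the setting more than the members' direction did; the cause was not tested. In GATA2-GMP, where 44 genes were called, DESeq2 called 504, no filter 294, the replicate block 3, the fit over 12 libraries 1461, and the fit without both replicate 3 libraries 2934, with 4, 2, 0, 5 and 6 members among them; leaving out 1 library gave 0 to 525 genes and 0 to 1 members. In GMP, where 381 were called, the block gave 964 genes and 2 members (Irf9 and Oas1a), the fit over 12 libraries 17 genes, and leaving out 1 library 209 to 398 genes. For the difference between stages, where 11 were called, DESeq2 size factors gave 17, DESeq2 738, no filter 40, the block 0 and the fit without both replicate 3 libraries 4187, with 4 members under DESeq2 and 12 in the last; leaving out 1 library gave 0 to 1179 genes and 0 to 6 members. The block changed the call of no other member by genotype, and with it Tapbp was at an adjusted p of 0.291 in GATA2-GMP. With library totals alone, an alternative chosen after seeing the data, the log2 stage difference turned to -0.31 for Irf9, -0.75 for Cmpk2 and -0.67 for Tapbp in WT, and to -0.61 for Parp9, -0.60 for Gbp2, -0.43 for Irf1, -0.22 for Jak1 and -0.0051 for Parp11 in KO. Without both replicate 3 libraries, also chosen after seeing the data, the Bst2 genotype by stage difference was 0.86. Of 3054 values compared, 126 changed sign with neither value called. Members under about 1 CPM rest on few counts, which limits what the genotype comparisons can detect there.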

Other observations

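Other interferon-stimulated genes were called between the stages about as often as all genes, with stage, culture and library kit again not to be told apart. Of the genes of that list, outside the 34, 32 rose and 29 fell in KO among 71 tested, where 38.6% and 40% of all genes did. In WT 27 rose and 28 fell among 72, where 34.1% and 36.4% did. The genes named next were picked for large changes among those called, and some, Irf8 and Gbp5 among them, are from the other pathway lists. Ifitm1, a membrane protein that blocks viral entry, was at 2219, 2405 and 4585 CPM in GATA2-GMP KO and 3896, 3808 and 1840 CPM in GATA2-GMP WT, against 25.8, 15.3 and 8.24 CPM in GMP KO and 9.10, 11.4 and 13.3 CPM in GMP WT. Its log2 fold change was 7.54 in KO and 8.15 in WT. Ifitm6 (8.55 and 9.41), Ly6a (6.05 and 6.44) and Slfn2 (5.40 and 5.84) rose as well. Irf8, a factor of monocyte and dendritic cell development, was at most at 0.376 CPM in GATA2-GMP and at 259 to 407 CPM in GMP, a log2 fold change of -10.62 in KO and -10.48 in WT. Ifi203 (-6.16 and -6.58), Gbp5 (-5.78 and -6.24) and the transporter subunit Tap2 (-4.59 and -5.18) fell with it. These genes kept their signs with library totals alone.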
